A study of Mus musculus with 4 samples.

Results

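Genes that carry and read the canonical Wnt signal were examined on Affymetrix mouse arrays of embryonic stem cells depleted of Chd4, the ATPase of the NuRD chromatin remodelling complex. The list held 10 genes: Ctnnb1, Lef1, Tcf7, Tcf7l1, Tcf7l2, Axin1, Axin2, Sp5, Tnfrsf19 and Lrp6. Its members on the array were the probe sets that the platform annotation gives to 1 of these genes alone. That rule found 21 of the 45101 probe sets, in 9 of the 18193 genes that the annotation names. Tcf7 had no probe set under that annotation and was not analysed here. The Chd4 knockdown group (n = 2 arrays) came from Chd4i-1 cells, a J1-derived line with an inducible RNAi construct against Chd4, grown with 5 ng/ml doxycycline and collected after 3 days. The control group (n = 2) was the same line without doxycycline. Both groups therefore carried the construct and both were kept on gelatin in medium with 15% serum and 1000 U/ml leukaemia inhibitory factor. The replicates are biological duplicates by the series text. A single inducible line was used, and no doxycycline-treated line without the construct was analysed here, so the effects of doxycycline, RNAi and Chd4 loss cannot be told apart.

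In canonical Wnt signalling a ligand brings a Frizzled receptor together with the co-receptor Lrp6, which stops a destruction complex built on the Axin scaffolds from marking beta-catenin for degradation. Beta-catenin, the product of Ctnnb1, then binds transcription factors of the Tcf/Lef family at target genes, among them Axin2 and Sp5. In mouse embryonic stem cells Tcf7l1 is known mainly as a repressor of naive pluripotency genes, and beta-catenin relieves that repression.

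All 3 Chd4 probe sets were lower in the knockdown arrays, at 48.5% to 65.0% of control (limma, adjusted p = 0.000244 to 0.00638). Without an intensity trend in the variance model none of the 3 passed (adjusted p = 0.0835 to 0.197). The median signal per array was 73.4 to 79.4. The 8 embryonic stem cell markers had summed signals of 105209 to 108334 in the knockdown and 103940 to 105973 in the control arrays. Of the 8, 2 rose, Utf1 1.24-fold and Dppa5a 1.14-fold (adjusted p = 0.00948 and 0.0112), beside 11.7% of all genes tested. The log2 difference was above 0 for 5 of the 8 and below 0 for 3, Pou5f1, Lin28a and Tdgf1 (-0.17, -0.24 and -0.13). Those 3 were lower without overlap of the groups but did not pass (adjusted p = 0.0650, 0.0727 and 0.114). Of 8 primitive streak and mesoderm markers on the array, 6 were under the median signal of all probe sets (76.0) on all 4 arrays, as were 4 of 8 primitive endoderm markers, 5 of 8 fibroblast markers, 3 of 7 neural ectoderm markers and 2 of 8 trophectoderm markers. The summed signal of the trophectoderm list was 5339 to 5636 in the knockdown and 2821 to 2833 in the control arrays. The members that passed there were Tfap2c and Krt18, 2 of 6 tested, beside 11.7% of all genes that rose. They were 2.62-fold and 2.22-fold higher (adjusted p = 1.62e-06 and 1.74e-05). Ascl2 and Krt8 were 1.56-fold and 1.10-fold higher without overlap but did not pass (adjusted p = 0.0956 and 0.374). Eomes and Hand1 had overlapping groups. The trophectoderm regulators Cdx2 and Elf5 were under the median on every array, with differences of opposite sign. Among the fibroblast markers Thy1 rose 3.06-fold and Vim fell 1.72-fold (adjusted p = 3.99e-05 and 0.000292), with the 3 collagen genes near or under the median. Among the neural markers Tubb3 rose 1.23-fold (adjusted p = 0.0270), while Sox1, too dim on average to be tested, gave 21.3 and 5.40 in knockdown cells and 129 and 183 in control cells. The part of such cells in the results below was not tested, and in bulk RNA a change in the number of cells of a type and a change in RNA per cell cannot be told apart.

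Of the 21 Wnt probe sets, 19 were bright enough to be tested, with a mean log2 signal in the upper 60% of the array. A probe set passed at an adjusted p under 0.05 in limma, with p values adjusted over all 27022 probe sets tested. Higher signals in knockdown cells were found for 3 of the 19 (15.8%), 1 each of Lef1, Tcf7l1 and Tnfrsf19. No Wnt probe set passed as lower. Over the whole array 14.2% of the probe sets tested passed, 7.46% as higher and 6.77% as lower, so the share of Wnt probe sets that passed lay near the background. At an unadjusted p under 0.05 there were 5 higher and 1 lower, 31.6% of the 19, against 28.3% of all probe sets tested (14.5% higher and 13.8% lower). The 2 groups did not overlap at 10 of the 19 tested Wnt probe sets, against 55.9% of all those tested. The median log2 difference, knockdown minus control, was 0.10 for the 19 Wnt probe sets and -0.012 for all.

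**Figure D1:**
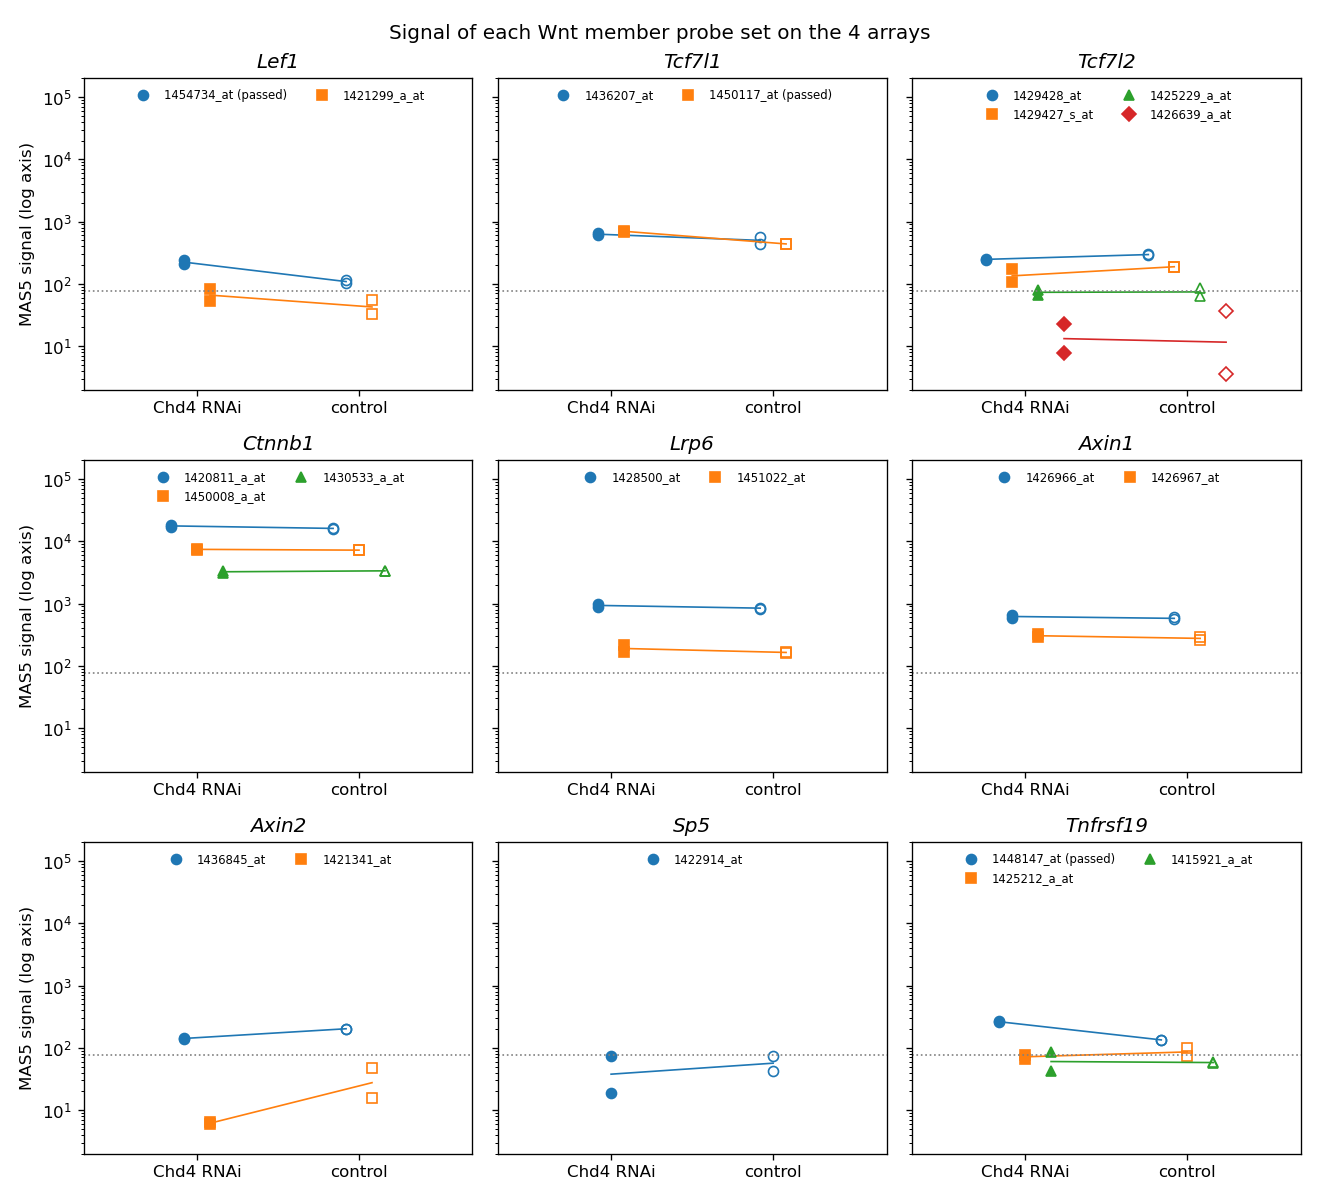
MAS5 signal (log axis) of each Wnt probe set, 1 panel a gene, with the 2 Chd4 RNAi arrays as filled points on the left and the 2 control arrays as open points on the right; lines join the group means of log values and the dotted line is the median signal of all probe sets (76.0). Lef1 1454734_at, Tcf7l1 1450117_at and Tnfrsf19 1448147_at lie higher on both knockdown arrays, and heights of different probe sets are not comparable with each other.

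The windows before the transcription starts of the 3 genes with a probe set that rose are shown with that of Sp5, a known direct target gene of beta-catenin and Tcf, since Tcf/Lef factors bind DNA around a CTTTG core. Capitals mark each match to CTTTG on either strand, extended to CTTTGAT, a longer form of that core, wherever either strand holds it. Sequences are RefSeq's (GRCm38.p6), 250 bases up to the start, 5′ to 3′ on the gene's strand, and for Lef1 and Tnfrsf19 they are 1 of several annotated starts.
Lef1, chr3:131110047-131110296, plus strand: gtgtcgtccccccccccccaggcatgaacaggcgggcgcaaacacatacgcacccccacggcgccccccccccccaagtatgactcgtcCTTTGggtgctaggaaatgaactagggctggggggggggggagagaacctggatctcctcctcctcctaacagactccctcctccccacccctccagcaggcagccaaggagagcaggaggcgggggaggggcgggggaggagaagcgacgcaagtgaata
Tcf7l1, chr6:72789046-72789295, minus strand: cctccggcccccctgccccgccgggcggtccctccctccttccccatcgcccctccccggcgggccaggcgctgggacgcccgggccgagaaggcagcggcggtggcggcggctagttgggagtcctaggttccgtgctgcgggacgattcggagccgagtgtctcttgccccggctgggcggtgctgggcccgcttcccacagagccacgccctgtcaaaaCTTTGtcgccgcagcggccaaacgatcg
Tnfrsf19, chr14:61037988-61038237, minus strand: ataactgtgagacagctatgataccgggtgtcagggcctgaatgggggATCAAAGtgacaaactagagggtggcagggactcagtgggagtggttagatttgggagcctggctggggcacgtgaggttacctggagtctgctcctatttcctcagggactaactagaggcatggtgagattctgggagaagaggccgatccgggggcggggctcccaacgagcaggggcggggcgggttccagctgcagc
Sp5, chr2:70474673-70474922, plus strand: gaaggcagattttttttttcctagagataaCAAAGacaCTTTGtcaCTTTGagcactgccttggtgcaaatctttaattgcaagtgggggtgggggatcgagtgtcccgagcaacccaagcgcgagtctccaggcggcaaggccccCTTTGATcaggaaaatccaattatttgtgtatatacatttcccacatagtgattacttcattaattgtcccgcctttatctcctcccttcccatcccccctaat
The table of promoters matched 8 of the 10 Wnt genes, with 15 windows. CTTTG was present in 9 of these 15 windows and in 48.6% of the 32851 windows of all genes. The 9 belonged to Lef1, Sp5, Tcf7l1, Tcf7l2 and Tnfrsf19. Several were of Lef1 and some of those overlap, so the windows are not independent. CTTTGAT was present in 2 of the 15, those of Sp5 and Tnfrsf19 printed here, and in 3.21% of all windows. It began 104 bases before the start of Sp5 and 202 bases before that start of Tnfrsf19. The Tnfrsf19 window printed is the one that holds it, and the window of the other Tnfrsf19 start held neither CTTTG nor CTTTGAT. The Sp5 window held 4 matches to CTTTG, while those of Lef1, Tcf7l1 and Tnfrsf19 printed here held 1 each. The windows of other Lef1 starts, not printed, held 1, 2 or 3. The Axin2 and Ctnnb1 windows held none. A match is a run of letters, and binding was not measured.

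Among the Tcf/Lef transcription factors, Lef1 and Tcf7l1 each had a probe set that rose. Lef1, which is both a partner of beta-catenin and in many tissues a Wnt target, had signals of 206 and 242 at probe set 1454734_at in knockdown cells, against 116 and 101 in control cells. Both knockdown arrays lay above both control arrays, a 2.05-fold difference (95% interval 1.46 to 2.89; log2 1.04 ± 0.22 SE, adjusted p = 0.0103). The call ended without knockdown replicate 2 (log2 0.92, adjusted p = 0.0533). The other Lef1 probe set, 1421299_a_at, gave 53.4 and 81.2 in knockdown cells and 54.6 and 33.0 in control cells. Those groups overlapped, 3 of the 4 values lay under the median of the array, and the probe set did not pass (log2 0.63 ± 0.46, adjusted p = 0.413). The responses of the 2 Lef1 probe sets differed by 0.41 on the log2 scale (95% interval -0.63 to 1.44, adjusted p = 0.780), and their average for the gene did not pass (log2 0.84, adjusted p = 0.123).

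Tcf7l1 had 2 probe sets, both well above the median of the array. At 1450117_at the signals were 709 and 688 in knockdown cells, against 439 and 436 in control cells. The spread within each group was small beside the gap between them, and the probe set rose 1.60-fold (95% interval 1.34 to 1.90; log2 0.68 ± 0.11 SE, adjusted p = 0.00262). At 1436207_at the signals were 647 and 608 in knockdown cells and 570 and 436 in control cells. Both knockdown values were again above both control values, by 1.26-fold (95% interval 1.02 to 1.56), but the control replicates stood further apart and the probe set did not pass (adjusted p = 0.147). Without control replicate 1 it did (log2 0.52, adjusted p = 0.0428). The difference in response between the 2 probe sets was -0.34 on the log2 scale for 1436207_at minus 1450117_at (95% interval -0.81 to 0.12, adjusted p = 0.545). With their log2 signals averaged, Tcf7l1 as a gene was higher by 0.50 on the log2 scale (adjusted p = 0.0278).

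Tcf7l2, the family member best known from intestine and liver, had 4 probe sets and none passed. The most intense, 1429428_at, gave 243 and 251 in knockdown cells, against 304 and 287 in control cells. The groups did not overlap, yet the log2 difference of -0.26 ± 0.16 SE was within the error of the fit (adjusted p = 0.333). Probe set 1429427_s_at, of a design that can match several transcripts, gave 105 and 171 in knockdown cells and 189 and 187 in control cells (log2 -0.49 ± 0.26, adjusted p = 0.247). The knockdown replicates of that probe set differed more from each other than the higher of them did from the controls. Signals at 1425229_a_at were 80.6 and 66.2 in knockdown cells and 63.9 and 86.0 in control cells, with overlapping groups (log2 -0.022 ± 0.35, adjusted p = 0.977). The last, 1426639_a_at, lay between 3.58 and 37.2 on all arrays and was too dim to be tested. Whether the response of Tcf7l2 differs from those of Lef1 and Tcf7l1 was not tested.

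**Figure D2:**
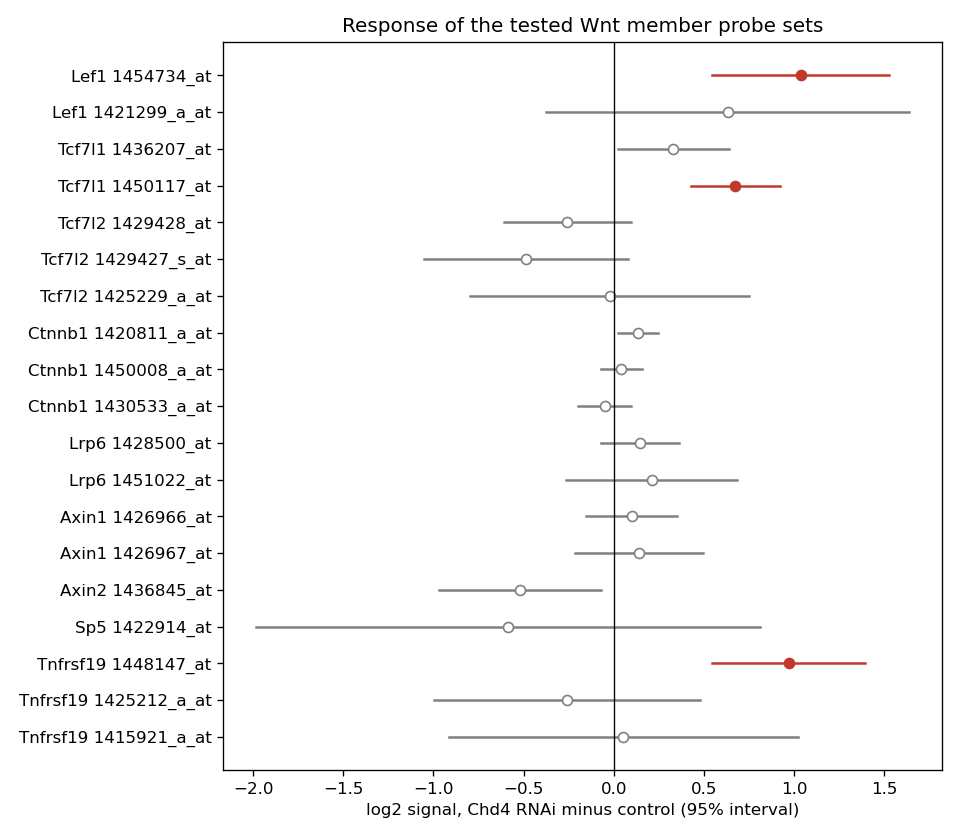
Log2 signal in Chd4 RNAi minus control for the 19 Wnt probe sets tested, with 95% intervals from the limma fit; filled red points have an adjusted p under 0.05. The 3 filled points, of Lef1, Tcf7l1 and Tnfrsf19, lie at 1.04, 0.68 and 0.97, and the interval of Axin2 1436845_at ends just under 0.

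Ctnnb1 itself did not pass at any of its 3 probe sets. Its probe sets gave 18340 and 17126 at 1420811_a_at in knockdown cells, against 15727 and 16580 in control cells. That is a 1.10-fold difference without overlap (95% interval 1.02 to 1.19), which did not pass (adjusted p = 0.109) but did without knockdown replicate 2 (log2 0.18, adjusted p = 0.0451). At 1450008_a_at the signals were 7344 and 7532 in knockdown cells and 7255 and 7196 in control cells, a log2 difference of 0.042 ± 0.052 SE (adjusted p = 0.662). At 1430533_a_at they were 3109 and 3386 in knockdown cells and 3396 and 3323 in control cells, a log2 difference of -0.050 ± 0.067 (adjusted p = 0.690). The 95% intervals of the 3 probe sets together ran from 0.87-fold to 1.19-fold of control. Beta-catenin is controlled largely through the stability of the protein, which was not measured here.

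The co-receptor Lrp6 and the scaffold Axin1 did not pass at any probe set. Lrp6 gave 888 and 984 at 1428500_at in knockdown cells, against 858 and 832 in control cells, a log2 difference of 0.15 ± 0.099 SE (adjusted p = 0.376). Its second probe set, 1451022_at, gave 217 and 166 in knockdown cells and 168 and 160 in control cells, where 1 knockdown array lay between the controls (log2 0.21 ± 0.22, adjusted p = 0.582). Axin1, the core scaffold of the destruction complex, gave 590 and 653 at 1426966_at in knockdown cells and 559 and 600 in control cells (log2 0.10 ± 0.12, adjusted p = 0.633). At 1426967_at Axin1 gave 325 and 285 in knockdown cells and 292 and 261 in control cells (log2 0.14 ± 0.16, adjusted p = 0.629). Both Axin1 probe sets had overlapping groups, and their 95% intervals reached from 0.86-fold to 1.41-fold of control.

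Among the target genes Axin2, Sp5 and Tnfrsf19, only Tnfrsf19 had a probe set that passed, and differences between these genes were not tested. Axin2, a scaffold related to Axin1 that is induced by Wnt signalling and feeds back to limit it, had signals of 144 and 139 at 1436845_at in knockdown cells, against 202 and 203 in control cells. The replicates agreed closely and the groups did not overlap, with a level in knockdown cells 0.70 times that of control (95% interval 0.51 to 0.95; log2 -0.52 ± 0.20 SE, unadjusted p = 0.0273). The adjusted p was 0.120, and at lowest 0.0904 over the alternatives, so this probe set did not pass under any of them. The standard error in this fit draws on probe sets of like intensity (9.24 prior beside 2 residual degrees of freedom), and so is larger than the spread of the Axin2 replicates alone. The second Axin2 probe set, 1421341_at, gave 6.33 and 5.94 in knockdown cells and 15.8 and 47.8 in control cells, all under the median of the array, and was not tested. With this dim probe set averaged in, the log2 difference of Axin2 was -1.34. As a gene, Axin2 did not pass in limma under any alternative either (lowest adjusted p = 0.0568).

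Sp5, a zinc finger factor gene directly activated by beta-catenin and Tcf/Lef, with the window richest in CTTTG of those printed above, was dim on every array. Its probe set 1422914_at gave 18.9 and 75.2 in knockdown cells, against 43.2 and 74.3 in control cells. The lowest and the highest value both came from the knockdown group, and the log2 difference of -0.59 ± 0.64 SE did not pass (adjusted p = 0.610). It turned to 0.41 without knockdown replicate 1. A change of Sp5 was not detectable at this signal.

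Tnfrsf19, which encodes the TNF receptor family member TROY, is a Wnt target in several tissues and has CTTTGAT before 1 of its 2 starts, rose at 1 of its 3 probe sets. At 1448147_at the signals were 265 and 260 in knockdown cells, against 135 and 133 in control cells, a 1.96-fold difference (95% interval 1.46 to 2.63; log2 0.97 ± 0.19 SE, adjusted p = 0.00683). At 1425212_a_at they were 77.4 and 66.5 in knockdown cells and 98.9 and 74.6 in control cells (log2 -0.26 ± 0.34, adjusted p = 0.674). At 1415921_a_at they were 42.2 and 85.7 in knockdown cells and 57.7 and 58.2 in control cells (log2 0.054 ± 0.44, adjusted p = 0.954). The last pair of probe sets lay around the median of the array and had overlapping groups. The response of 1448147_at exceeded that of 1425212_a_at by 1.23 on the log2 scale (95% interval 0.35 to 2.11, unadjusted p = 0.0118), which did not pass after adjustment over all 18097 pairs of probe sets of 1 gene (adjusted p = 0.223). Averaged over its probe sets, Tnfrsf19 as a gene had a log2 difference of 0.25 (adjusted p = 0.570).

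Of the 8 Wnt genes with more than 1 probe set, 5 (Lef1, Tcf7l1, Axin1, Axin2 and Lrp6) had probe sets of the same sign throughout, dim ones included, and 3 (Ctnnb1, Tcf7l2 and Tnfrsf19) had both signs. Among 13 pairs of tested probe sets of 1 Wnt gene, limma called 0 as differing in response and 1 had an unadjusted p under 0.05. Over the array 0.696% of such pairs passed. When each gene was represented by its most intense probe set, 2 of the 9 Wnt genes passed, Lef1 and Tnfrsf19, against 20.5% of the 12615 genes tested, 11.7% as higher and 8.81% as lower. The groups did not overlap at 60.6% of all genes tested. Tcf7l1 was missed in that count because its slightly more intense probe set was the one that did not pass.

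Genes that Tcf7l1 represses in mouse embryonic stem cells were compared next, since Tcf7l1 had a probe set that rose. Of 4 such genes, each taken at its most intense probe set, 2 fell, 1 rose and 1 did not pass. Of all genes tested 8.81% fell and 11.7% rose. Tfcp2l1, a naive-state transcription factor gene, fell by 0.44 on the log2 scale (SE 0.055, adjusted p = 0.000262). Its other probe sets were too dim to be tested, and with them averaged in the difference was -0.25 (adjusted p = 0.785). Esrrb, an orphan nuclear receptor gene, fell by 0.29 on the log2 scale (SE 0.057, adjusted p = 0.00445). The 2 other Esrrb probe sets tested had the same sign. Klf2, a Krüppel-like factor gene, rose 1.23-fold (log2 0.30 ± 0.070, adjusted p = 0.0106), a call that ended without control replicate 2 (log2 0.20, adjusted p = 0.0842). Nanog gave 11678 and 11662 in knockdown cells and 11588 and 11661 in control cells, a difference of 0.0056 ± 0.046 on the log2 scale (adjusted p = 0.949).

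In the pathway beyond the members 124 genes were listed by role, the 4 just described included, of which 118 had a probe set and 82 were tested at their most intense one. A rise was found for 10 (12.2%) and a fall for 13 (15.9%), beside 11.7% and 8.81% of all genes. The median log2 difference was -0.038, against 0.014 over all genes. With all probe sets of a gene averaged, 2 rose and 7 fell, and without the intensity trend 0 rose and 1, Myc, fell (27 of the 82, or 32.9%, had an unadjusted p under 0.05 in that limma fit). Of all genes 27.0% had such a p without the trend and 3.34% passed, and 11.8% passed with probe sets averaged.

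**Figure D3:**
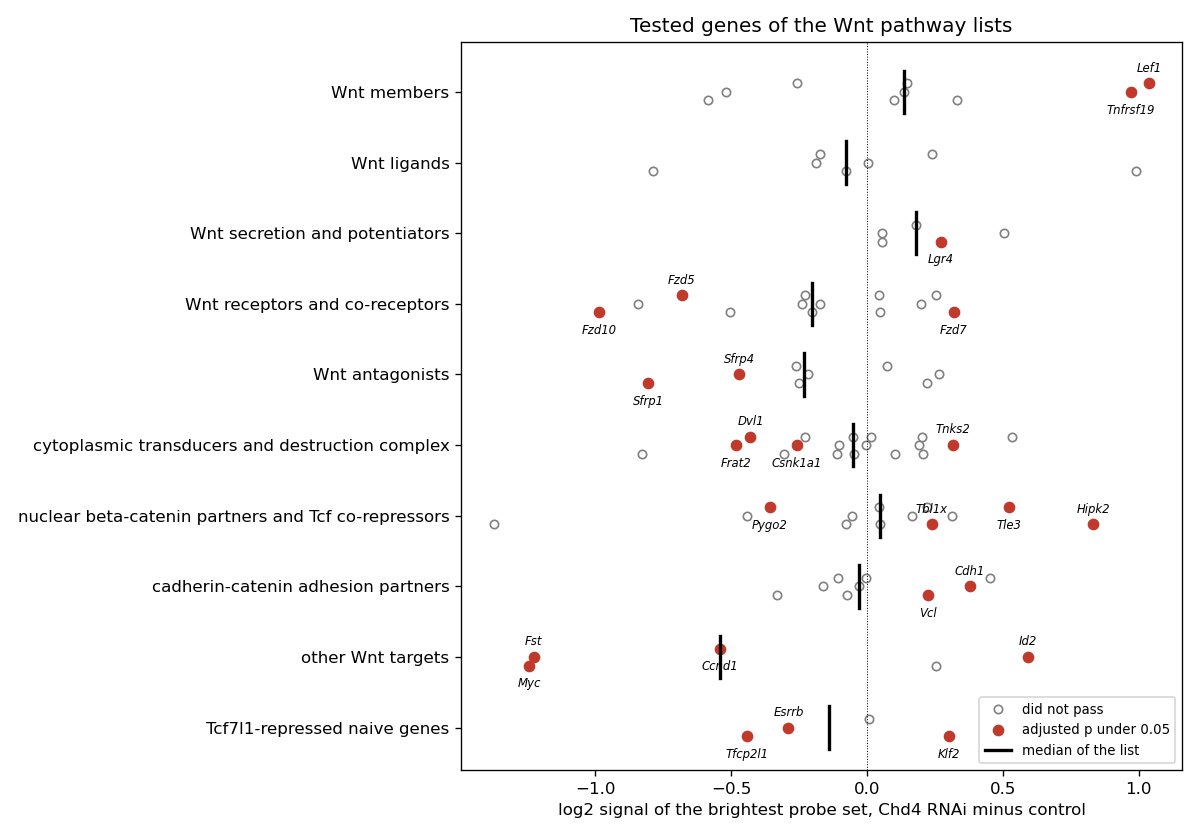
Log2 signal in Chd4 RNAi minus control of the tested genes in each Wnt pathway list, at the most intense probe set of a gene; filled red points have an adjusted p under 0.05 and the black bars are list medians. The lowest named points are Myc and Fst at -1.24 and -1.23, and the highest are Lef1 and Tnfrsf19 at 1.04 and 0.97.

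Upstream of the members, 15 of the 19 Wnt ligand genes were under the median of the array on every array. Of the 7 ligands tested limma called 0, and 1 had an unadjusted p under 0.05. Among 13 receptors and co-receptors 1 rose and 2 fell, beside 11.7% and 8.81% of all genes. The Frizzled receptor gene Fzd5 fell 1.60-fold (log2 -0.68 ± 0.067 SE, adjusted p = 5.8e-05) and its other tested probe set had the same sign. Fzd10 gave 74.9 and 78.7 in knockdown cells and 137 and 169 in control cells, 1.98-fold lower (adjusted p = 0.0273), and did not pass without control replicate 1, without control replicate 2 or without knockdown replicate 1 (adjusted p = 0.0563 to 0.185). Fzd7 rose 1.25-fold (adjusted p = 0.00854) at a probe set with signals of 1695 to 2155. Its other tested probe set had the opposite sign and did not pass. That probe set was dim, at 54.4 and 37.1 in knockdown cells and 79.1 and 100 in control cells. Averaging the Fzd7 probe sets gave a log2 difference of -0.33 (adjusted p = 0.196). Lgr4, a receptor for the R-spondins that strengthen Wnt signals, rose 1.21-fold (adjusted p = 0.0152). It was the 1 gene of 5 tested in the secretion and potentiator list that passed, beside 20.5% of all genes. That call ended without control replicate 1, control replicate 2 or knockdown replicate 1 (adjusted p = 0.0570 to 0.0677).

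Of 16 Wnt antagonist genes on the array, 7 were under the median on every array and 8 were tested. Of the 8 tested 2 fell and 0 rose in limma, beside 8.81% and 11.7% of all genes. The same 2 were those with an unadjusted p under 0.05, and the log2 difference was below 0 for 5 and above 0 for 3. Wif1, too dim on average to be tested, gave 81.1 and 92.0 in knockdown cells and 15.1 and 8.61 in control cells. Sfrp1, a secreted Frizzled-related protein that binds Wnt ligands, gave 946 and 797 in knockdown cells, against 1488 and 1547 in control cells, a 1.75-fold fall (log2 -0.81 ± 0.098 SE, adjusted p = 0.000242). All 4 other Sfrp1 probe sets tested had the same sign, and 3 of them passed. Sfrp4, a related gene, fell 1.39-fold (adjusted p = 0.0211), a call lost when control replicate 1 was left out (log2 -0.36, adjusted p = 0.167) and when knockdown replicate 2 was (-0.45, adjusted p = 0.0592).

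Between receptor and nucleus, 1 of 18 transducer and destruction complex genes rose and 3 fell, beside 11.7% and 8.81% of all genes. Tnks2, a tankyrase that marks Axin proteins for degradation, rose 1.24-fold (adjusted p = 0.00177), with both other tested probe sets of the same sign, and did not pass with its probe sets averaged (log2 0.19, adjusted p = 0.0925). Dvl1, a Dishevelled adaptor gene, fell 1.35-fold (adjusted p = 0.00626), and its other probe set passed in the same direction. The casein kinase gene Csnk1a1 fell 1.20-fold (adjusted p = 0.0105), with its 3 other tested probe sets of the same sign, although the average over all its probe sets, dim ones included, was 0.054 on the log2 scale (adjusted p = 0.831) and the call ended without control replicate 2 (adjusted p = 0.0842). Frat2, a Gsk3-binding protein gene, fell 1.40-fold (adjusted p = 0.0479), and leaving out control replicate 2 (adjusted p = 0.288) or knockdown replicate 2 (adjusted p = 0.198) ended the call.

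Among 13 nuclear partners of beta-catenin and co-repressors of Tcf factors, 3 rose and 1 fell, beside 11.7% and 8.81% of all genes. The kinase gene Hipk2 rose 1.78-fold (log2 0.83 ± 0.17 SE, adjusted p = 0.00585). All 5 of its other tested probe sets had the same sign, 2 of which passed, while the average over every Hipk2 probe set, dim ones included, was 0.19 (adjusted p = 0.680). Tle3, a Groucho-type co-repressor gene, rose 1.43-fold (adjusted p = 0.0113), but not without knockdown replicate 1 (adjusted p = 0.0531), with dim signals raised to the median of the array (0.0546) or with its probe sets averaged (log2 0.30, adjusted p = 0.117). Tbl1x rose 1.18-fold and Pygo2, a beta-catenin co-activator gene, fell 1.28-fold (adjusted p = 0.0485 and 0.0311), both of which ended without control replicate 1, control replicate 2 or knockdown replicate 1 (adjusted p = 0.0552 to 0.239). In the cadherin-catenin adhesion list, whose proteins hold a separate pool of beta-catenin at the membrane, 2 of 9 rose, beside 11.7% of all genes. Cdh1, the E-cadherin gene, gave 9319 and 9292 in knockdown cells, against 6988 and 7334 in control cells, a 1.30-fold rise (log2 0.38 ± 0.051, adjusted p = 0.00049). Vcl, which encodes vinculin, rose 1.17-fold (adjusted p = 0.0323), a call lost without control replicate 1, control replicate 2 or knockdown replicate 1 (adjusted p = 0.0521 to 0.171).

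Of 5 other Wnt targets tested, 1 rose and 3 fell, beside 11.7% and 8.81% of all genes. Myc gave 473 and 510 in knockdown cells, against 1242 and 1090 in control cells (log2 -1.24 ± 0.11 SE). Its adjusted p was 2.41e-05, and it is also a target of other pathways in these cells. The D-type cyclin gene Ccnd1 fell by 0.54 on the log2 scale (SE 0.070, adjusted p = 0.000357), and its 2 other tested probe sets passed as lower too. Fst, the follistatin gene, gave 56.1 and 42.3 in knockdown cells and 113 and 115 in control cells, at least 1.50-fold lower with dim signals raised to the median of the array (adjusted p = 0.0272 in that fit, and 0.0299 with the signals as deposited). The Fst call ended without control replicate 1, control replicate 2 or knockdown replicate 2 (adjusted p = 0.0878 to 0.133). Id2, an inhibitor of basic helix-loop-helix factors, rose 1.51-fold (adjusted p = 0.00159), with both other tested probe sets of the same sign, and did not pass with its probe sets averaged (log2 0.55, adjusted p = 0.0594).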

How the data were processed

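Each array has 1 deposited intensity for every probe set, on a linear scale, which the authors obtained with MAS5 according to the tool named per the submitters' processing notes, without a stated version or scaling target. The mean of non-control probe sets with the tails trimmed was 496.3 to 497.1 on every array. Depth does not apply, and the number of arrays limits the precision. Probe sets were named through the platform annotation. Of the non-control probe sets, 34945 had 1 symbol, 932 several and 9160 none. Log2 signals without a pseudocount were compared in limma 3.58.1 (R 4.3.3, intensity trend, 2 residual degrees of freedom, two-sided), over probe sets with a mean signal of 42.4 or more, with Benjamini-Hochberg adjustment. Genes were tested at their most intense probe set, and pairs of probe sets of 1 gene by their log2 ratio per array. The fits of probe sets and of pairs were tested on simulated data. That noise was drawn from the same variance model with the intensity trend, so the simulation cannot check the model itself.

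The members and lists were chosen with earlier results of these data known. All member probe sets are named, as are up to 4 genes of each other list with the smallest p among those that passed without overlap, and the 4 genes repressed by Tcf7l1. The replicate numbers did not pair the arrays (correlation of replicate differences -0.0019). Alternatives were a pseudocount of 16, quantile normalization, other filters, a floor, no trend, a replicate block, averaged probe sets and each array left out. Averages took all probe sets of a gene, dim ones included.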

Additional observations from a re-analysis of the deposited data

How the results depend on the processing

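With 1 array left out the Wnt probe sets that passed were not always the same 3, as given above for Lef1, Tcf7l1 and Ctnnb1. The log2 difference then ran from 0.92 to 1.16 for Lef1 1454734_at and from 0.65 to 0.70 for Tcf7l1 1450117_at. For Tnfrsf19 1448147_at it ran from 0.95 to 0.99. Without the intensity trend 0 Wnt probe sets passed (4 at an unadjusted p under 0.05 in limma). No probe set of the array passed without the trend, and the Chd4 probe sets gave 0 calls. In that fit the adjusted p was 0.0938 for Lef1 1454734_at, 0.0932 for Tcf7l1 1450117_at and 0.0685 for Tnfrsf19 1448147_at. The Wnt genes that passed also changed with 1 array left out. Of the 2 Wnt genes, 1 passed without the trend, Tnfrsf19. With probe sets averaged 1 Wnt gene passed, Tcf7l1 (limma, adjusted p = 0.0278), which was not among the 2. Neither Lef1 nor Tnfrsf19 passed when averaged (adjusted p = 0.123 and 0.570). The 23 other pathway genes were 16 to 20 with 1 array left out, 1 without the trend and 9 with probe sets averaged. The Chd4 count stayed at 3, and the count of differing pairs at 0, with any 1 array left out, but a floor at the median left 2 Chd4 probe sets (1451295_a_at, adjusted p = 0.0552). Signs turned for Nanog under quantile normalization (-0.025), for Tcf7l2 1425229_a_at without control replicate 2 (0.19) or knockdown replicate 2 (0.12; range with 1 array left out -0.24 to 0.19), for Ctnnb1 1430533_a_at (0.011; range -0.11 to 0.011) and Sp5 1422914_at (0.41; range -1.58 to 0.41) without knockdown replicate 1, for Tnfrsf19 1415921_a_at without knockdown replicate 2 (-0.46; range -0.46 to 0.56), and with averaged probe sets for Fzd7 (-0.33) and Csnk1a1 (0.054). The cause was not tested. With the replicate block 3 Wnt probe sets and 2 Wnt genes passed, and 20 other pathway genes. The block ended the calls of Frat2, Tbl1x and Vcl (adjusted p = 0.0763, 0.0771 and 0.0551) and no other call named here. The floor ended those of Sfrp4, Tle3, Pygo2, Tbl1x and Frat2 (0.0534, 0.0546, 0.0676, 0.0681 and 0.102), no filter those of Fzd10, Fst, Tbl1x and Frat2 (0.0642, 0.0713, 0.0689 and 0.0783), and quantile normalization that of Frat2 (0.0559). Averaging probe sets also ended those of Lgr4, Frat2, Pygo2, Tbl1x, Vcl and Fst (0.0744, 0.0859, 0.0643, 0.350, 0.0789 and 0.139). Frat2 and Pygo2 have 1 probe set each, so nothing was averaged for them and only the other genes in the fit changed. Over all probe sets, 3847 passed, 2430 without control replicate 2 and 0 without the trend (5828 at an unadjusted p under 0.05). Signals near or under the median of the array limit what can be seen for Sp5, most Wnt ligands and the dim probe sets of Lef1, Tcf7l2, Axin2 and Tnfrsf19.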
